A study of Caenorhabditis elegans with 6 samples.

Results

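The genes described here encode the subunits of the *C. elegans* proteasome, the protease complex that degrades ubiquitin-tagged proteins. Members were chosen by name, as every gene of the deposited table called *pas*, *pbs*, *rpt* or *rpn* with a number, which gave 33 of the 19793 genes. All 33 were detected and passed the filter on low values, a mean normalized read count of at least 10. The question was whether neural cells that lose RNA binding by ADR-1 differ in the expression of these genes. ADR-1 is an RNA-binding protein of the family of RNA-editing enzymes.

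The mutant cells came from strain HAH57, labelled *adr-2 (-)*; ADR-1 dsRBD1 (3 libraries, called dsRBD1 mutant here), and were set against cells of strain BB78, labelled *adr-2 (-)* (3 libraries). Per the methods of the study, HAH57 carries 3 lysine substitutions in the first double-stranded RNA-binding domain of a FLAG-tagged ADR-1. Both strains carry the *adr-2* deletion allele *ok735*, which removes the RNA-editing enzyme ADR-2, *rab-3* promoter transgenes that mark neurons with GFP and RFP, and an *unc-119* rescue. No group with a functional *adr-2* was in these data, and the tag on ADR-1 is not listed for BB78. All animals were L1 larvae obtained by bleaching, and each library is an independent biological replicate per those methods. Point mutations cannot be seen in read counts per gene, so the counts do not check the genotypes. Reads on *adr-2* itself numbered 2, 30 and 4 in dsRBD1 mutant libraries and 95, 79 and 44 in *adr-2 (-)* libraries. As normalized read counts these were 1.86, 18.1 and 2.86 in dsRBD1 mutant libraries, against 85.6, 57.98 and 143 in *adr-2 (-)* libraries, with no overlap and a log2 fold change of −3.92 (standard error 1.67; limma adjusted p = 0.741). The 2 strains thus differed in reads at the *adr-2* locus although the same deletion allele is listed for both, and why was not tested.

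The proteasome consists of a barrel-shaped core particle and a regulatory particle that caps it. The core has outer alpha rings, encoded by *pas-1* to *pas-7*, which gate the entry of substrates, and inner beta rings, encoded by *pbs-1* to *pbs-7*, which hold the cutting sites. In the regulatory particle, the base contains a ring of ATPases (*rpt-1* to *rpt-6*) that unfold substrates, together with scaffold and ubiquitin-receptor subunits. The lid removes ubiquitin before a protein enters the core. Neurons depend on this route to clear damaged proteins and to remodel synapses. When the proteasome fails, the transcription factor SKN-1A raises transcription of the subunit genes together in *C. elegans*.

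The libraries held from 12219263 to 18382009 reads on genes in dsRBD1 mutant cells and from 5686686 to 14658470 in *adr-2 (-)* cells. One library stood apart: in *adr-2 (-)* replicate 3, ribosomal RNA genes took 55.4% of the reads, against at most 22.3% in the other libraries, and 1 read there stood for a normalized read count of 3.25. Its lowest count for any member other than *rpn-6.2* was 48 reads, and values without this library are given below where they move the result. The 12 neural markers examined (synaptic genes such as *rab-3* and *snb-1*) summed to between 35523 and 47805 in dsRBD1 mutant libraries and between 33317 and 39706 in *adr-2 (-)* libraries, so the labelled cell type was detected. Markers of other tissues were detected as well, but 5 of the 7 epidermis markers were at 0 in at least 1 library. The epidermis marker *sqt-3* ranged from 183 to 11199 in dsRBD1 mutant libraries and from 281 to 4453 in *adr-2 (-)* libraries. The 7 muscle markers summed to between 293500 and 319660 in dsRBD1 mutant libraries and to between 197437 and 330778 in *adr-2 (-)* libraries. For the 7 intestine markers the sums were 57404 to 82058 and 52433 to 75785. In each library the muscle sum and the intestine sum exceeded the neural sum. None of the muscle, intestine or germline markers was at 0 in any library. The part of RNA from other tissues in the values of the proteasome genes was not tested.

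Most proteasome genes had lower normalized read counts in dsRBD1 mutant cells, but no single gene passed the test. The log2 fold change (dsRBD1 mutant over *adr-2 (-)*, on the log2(value + 1) scale) was below 0 for 29 of the 33 genes (87.9%), compared with 45.5% of the 13705 genes tested. The median log2 fold change was −0.48 for the proteasome genes and 0.09 for all genes tested. A gene was called where its Benjamini-Hochberg adjusted p from limma was under 0.05 and its log2 fold change was beyond 0.5 in either direction. None of the 33 was called, nor was any other gene (0.0% of all genes tested), and the smallest adjusted p of a member was 0.741. At an unadjusted p under 0.05, 5 of the 33 genes were lower (2.9% of all genes tested) and 0 were higher (3.46% of all genes tested). In 7 of the 33 genes every dsRBD1 mutant library lay below every *adr-2 (-)* library, which held for 6.92% of all genes tested, and in 0 genes every mutant library lay above (6.8% of all genes tested). In bulk libraries, a smaller share of cells that express a gene and less of its RNA per cell cannot be told apart.

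With read counts recovered from these values, edgeR (quasi-likelihood) also called 0 of the 33 genes (0.0% of all genes tested), with 7 lower at an unadjusted p under 0.05 (3.88% of all genes tested). DESeq2's Wald test called 0 of the 33 with Benjamini-Hochberg adjustment, where it called 2.29% of the genes to which it gave an adjusted p. The smallest DESeq2 adjusted p among the members was 0.126, for *pas-4*.

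**Figure D1:**
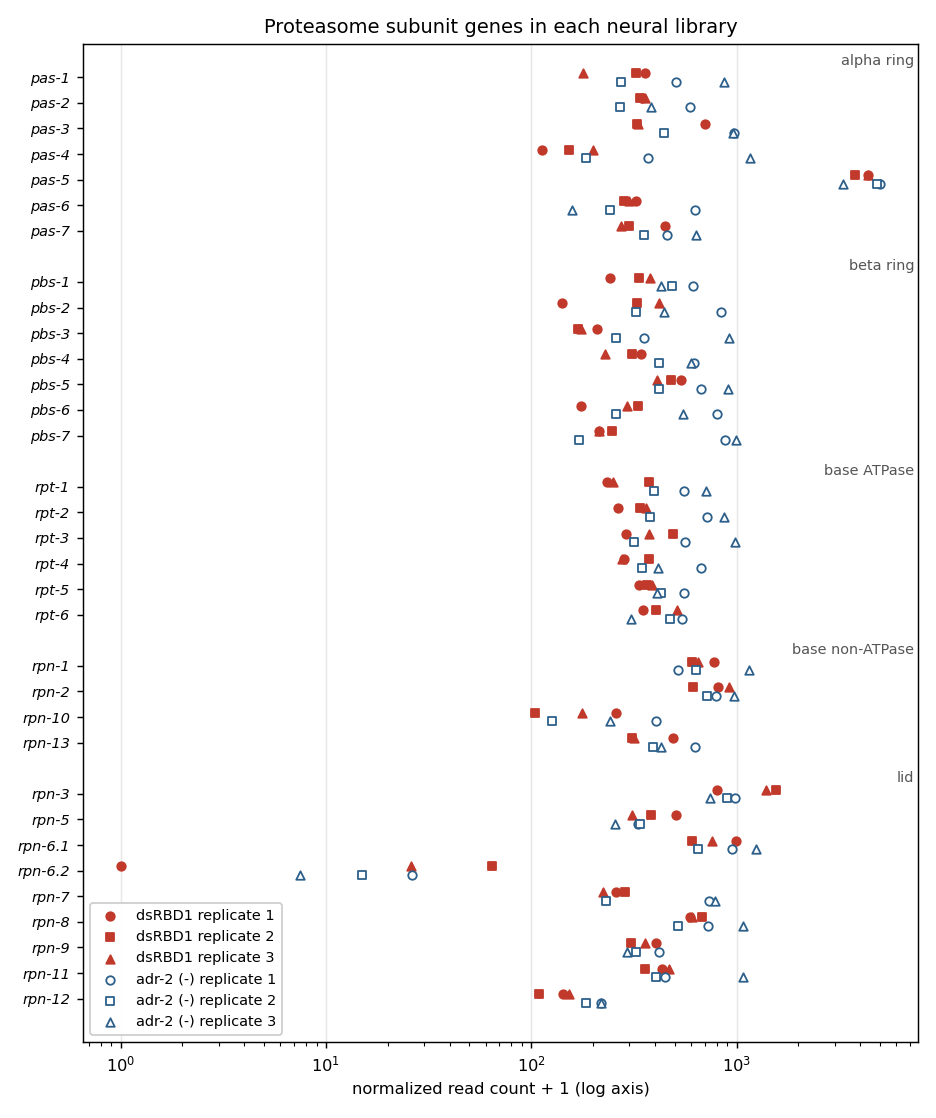
Normalized read count plus 1 (log axis) of the 33 proteasome subunit genes in each of the 6 libraries, grouped by place in the complex. Filled red symbols are the 3 dsRBD1 mutant libraries and open blue symbols the 3 *adr-2 (-)* libraries. *pas-5* lies to the right of all other members and *rpn-6.2* to the left. The open circle (*adr-2 (-)* replicate 1) lies right of all filled symbols in 26 rows and the open triangle (replicate 3) in 24, not always the same rows. The open square (replicate 2) lies among the filled symbols in 21 rows, right of them in 8 and left of them in 4.

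The difference was carried by 2 of the 3 *adr-2 (-)* libraries. The median normalized read count of the 33 genes was 340.3, 334 and 331 in dsRBD1 mutant replicates 1, 2 and 3, against 609, 353 and 709 in *adr-2 (-)* replicates 1, 2 and 3. *adr-2 (-)* replicate 2 therefore lay close to the mutant libraries. In *adr-2 (-)* replicate 1, 26 of the 33 genes exceeded all 3 mutant libraries, compared with 30.1% of all genes tested. In replicate 3, 24 did so, compared with 31.8% of all genes tested. In replicate 2, 8 did so (22.3% of all genes tested), and 4 lay below all 3 mutant libraries (18.8% of all genes tested). The remaining 21 lay inside the range of the mutant libraries. The highest value of a gene was in *adr-2 (-)* replicate 1 or replicate 3 for 15 genes each, in replicate 2 for 0 genes, and in a mutant library for 3 genes. The library with the highest value was not counted over all genes tested, so these counts lack that comparison. The mutant libraries, in contrast, were close to each other, and the SD on the log2 scale had a median over the 33 genes of 0.30 among dsRBD1 mutant libraries and 0.56 among *adr-2 (-)* libraries. Over all genes tested the median SD was likewise smaller in the mutant, 0.56 among dsRBD1 mutant libraries and 0.88 among *adr-2 (-)* libraries. The SD was larger in *adr-2 (-)* cells for 75.8% of the 33 genes and for 62.8% of all genes tested.

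The counts depended on these libraries. Without *adr-2 (-)* replicate 1, 1 gene was lower at an unadjusted p under 0.05 (*pbs-3*, also among the 5), and the median log2 fold change was −0.39. Without replicate 3, the count was 2, of which only *pbs-4* was among the 5, and the median was −0.43. Without replicate 2, it was 11, including all 5, and the median was −0.71. Over all genes tested, 11 were called in that fit, against 0 with all libraries. The median of all genes tested was 0.15, −0.06 and 0.16 in these 3 fits. When 1 of the dsRBD1 mutant libraries was left out instead, 3 genes were lower at that p whichever of them was missing, and without mutant replicate 1 a further gene, *rpn-3*, was higher. The share of all genes tested at that p was not computed for any of these omissions, so these counts lack that comparison. Fold changes were below 0 for 25, 28 and 28 of the 33 genes without *adr-2 (-)* replicates 1, 2 and 3. The shares of all genes tested below 0 in these fits were 43.1%, 44.1% and 53.9%, against 45.5% with all libraries.

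RNA of germline and early embryo genes was high in the same libraries. The 12 markers of these cells, such as the P granule gene *pgl-1* and the germ cell gene *nos-2*, summed to a normalized read count of 884, 759 and 1201 in dsRBD1 mutant replicates 1, 2 and 3, and of 6025, 1828 and 7127 in *adr-2 (-)* replicates 1, 2 and 3. All 12 had a log2 fold change below 0 (45.5% of all genes tested), with a median of −3.13. At an unadjusted p under 0.05 from limma, 10 were lower (2.9% of all genes tested). None of the 12 was called after adjustment, since limma called no gene (0.0% of all genes tested). The part of germline or embryonic RNA in the values of the proteasome genes was not tested. *adr-2 (-)* replicate 1 had 11922671 reads, 18.5% of them on ribosomal RNA genes, and replicate 3 had 5686686, 55.4% of them on those genes. The part of depth and of ribosomal RNA was not tested either.

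**Figure D2:**
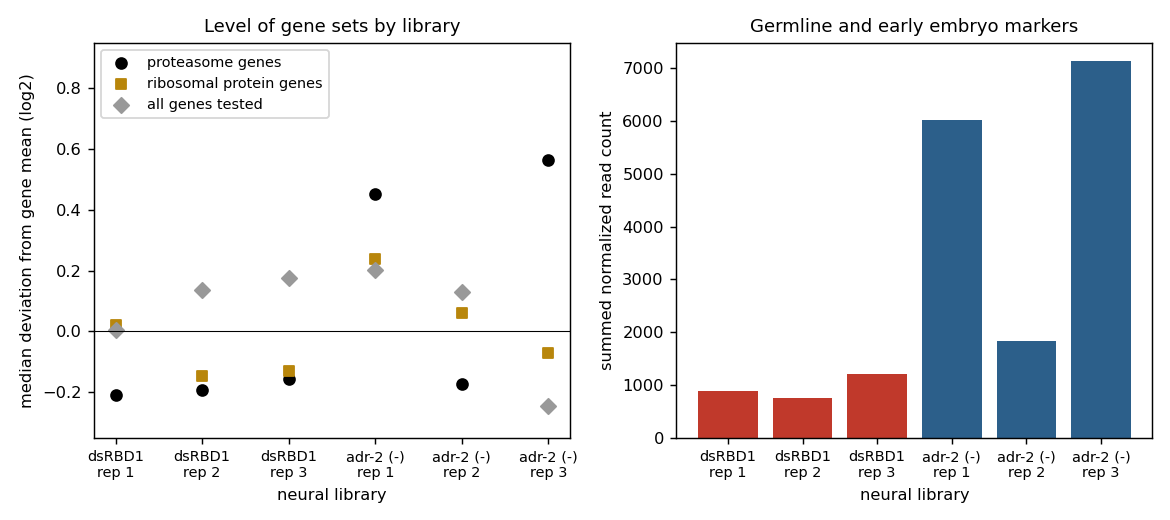
Left, median deviation of each gene set from the gene's mean over the 6 libraries, on the log2 scale, for proteasome genes (circles), ribosomal protein genes (squares) and all genes tested (diamonds). Right, summed normalized read count of the 12 germline and early embryo markers. The proteasome genes are highest in *adr-2 (-)* replicates 1 and 3 (0.45 and 0.56), the 2 libraries with marker sums of 6025 and 7127.

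Among the parts of the complex, the beta ring had the lowest fold changes and the lid was the most mixed. The median log2 fold change was −0.90 for the 7 beta ring genes, −0.57 for the 6 base ATPases, −0.49 for the 7 alpha ring genes, −0.25 for the 9 lid genes and −0.24 for the 4 other base genes. Fold changes were below 0 for all 7 beta ring genes, all 6 ATPases and all 4 other base genes, for 6 of the 7 alpha ring genes and for 6 of the 9 lid genes. For the core particle as a whole the median was −0.83 (14 genes), and for the regulatory particle it was −0.34 (19 genes). These medians moved with the library left out. The beta ring median was −0.55 without *adr-2 (-)* replicate 1, −1.18 without replicate 2 and −0.80 without replicate 3, the lowest of the 5 parts in each of these fits. The median of the core was −0.55, −1.13 and −0.67 in the same fits and that of the regulatory particle −0.22, −0.50 and −0.28. The lid median was −0.03 without *adr-2 (-)* replicate 3, and the base ATPase median was −0.88 without replicate 2. Differences between the parts were not tested, since the genes share libraries.

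**Figure D3:**
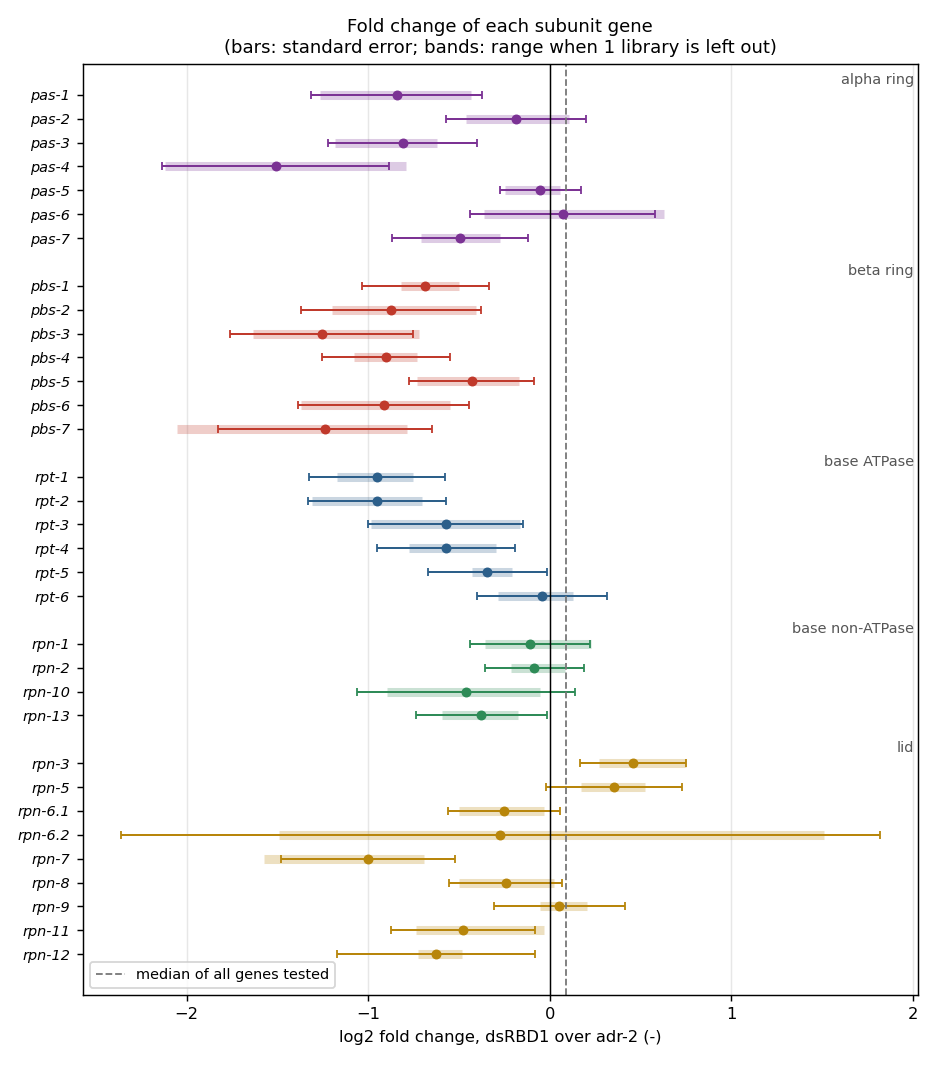
Log2 fold change (dsRBD1 mutant over *adr-2 (-)*) of each subunit gene. Points are limma estimates, bars are standard errors, shaded bands span the values when 1 library is left out, and the dashed line is the median of all genes tested (0.09). All 7 beta ring genes lie left of 0 with their whole bands, and *rpn-3* and *rpn-5* of the lid lie right of 0 with theirs.

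The beta ring gene *pbs-3*, which encodes a structural beta subunit without a cutting site, lies on chromosome II of WBcel235 from 4954480 to 4955427. It had normalized read counts of 208, 168 and 173 in dsRBD1 mutant replicates 1, 2 and 3, against 351, 258 and 917 in *adr-2 (-)* replicates 1, 2 and 3. The groups did not overlap, and *adr-2 (-)* replicate 3 was far above the rest. Without that library the log2 fold change of *pbs-3*, −1.25 (standard error 0.50), was −0.72. *pbs-4* (chromosome I, 3908747 to 3909701), another structural beta subunit, had counts of 340.3, 308 and 228 in dsRBD1 mutant cells, against 616, 419.8 and 602 in *adr-2 (-)* cells. Its groups did not overlap either. The log2 fold change of *pbs-4* was −0.90 (standard error 0.35), with a range from −1.08 to −0.73 over the omissions of 1 library.

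The remaining structural beta subunits overlapped between the genotypes. *pbs-7* (chromosome I, 8695205 to 8696301) had counts of 214, 247 and 212 in dsRBD1 mutant cells, against 873, 170.3 and 995 in *adr-2 (-)* cells. *adr-2 (-)* replicate 2 was here the lowest of all 6 libraries, while the other two *adr-2 (-)* libraries were the highest. The log2 fold change was −1.24 (standard error 0.59), and −2.05 without *adr-2 (-)* replicate 2. It was −0.88 without *adr-2 (-)* replicate 1 and −0.78 without replicate 3. *pbs-6* had counts of 174, 331 and 293 in dsRBD1 mutant cells, against 801, 257 and 549.7 in *adr-2 (-)* cells, and its log2 fold change was −0.91. That fold change was −0.55, −1.37 and −0.82 without *adr-2 (-)* replicates 1, 2 and 3.

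The catalytic subunits of the beta ring are *pbs-1*, with caspase-like activity, *pbs-2*, with trypsin-like activity, and *pbs-5*, with chymotrypsin-like activity, as named from their counterparts in yeast and mammals. *pbs-1* (chromosome IV, 1708814 to 1709745) had counts of 242, 334 and 377 in dsRBD1 mutant cells, against 609, 486 and 429 in *adr-2 (-)* cells, which did not overlap. It was the only catalytic subunit for which *adr-2 (-)* replicate 2 also lay above every mutant library, with a log2 fold change of −0.69 (standard error 0.35). *pbs-2* had counts of 139, 326 and 420.1 in dsRBD1 mutant cells, against 834, 321 and 442 in *adr-2 (-)* cells. The groups overlapped through *adr-2 (-)* replicate 2, and the log2 fold change of −0.87 (standard error 0.50) was −0.49 without *adr-2 (-)* replicate 1. *pbs-5* had counts of 533, 477 and 408 in dsRBD1 mutant cells, against 669, 418 and 907 in *adr-2 (-)* cells, which also overlapped. Its log2 fold change, −0.43 (standard error 0.34), was −0.17 without *adr-2 (-)* replicate 3.

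In the alpha ring, *pas-4* (chromosome I, 8727218 to 8728487) had the most negative log2 fold change of the 33 genes, −1.51 (standard error 0.63). Its counts were 112, 152 and 198 in dsRBD1 mutant cells, against 369, 183 and 1164 in *adr-2 (-)* cells. *adr-2 (-)* replicate 2 lay inside the mutant range and replicate 3 was the highest by a wide margin, and without replicate 3 the log2 fold change was −0.79. *pas-1*, *pas-3* and *pas-7* had log2 fold changes of −0.84, −0.81 and −0.49 (−0.43, −0.63 and −0.27 without *adr-2 (-)* replicate 3), and all 3 overlapped between the genotypes. *pas-2* had counts of 346, 336 and 357 in dsRBD1 mutant cells, against 590.2, 269 and 384 in *adr-2 (-)* cells. For *pas-2* the log2 fold change of −0.18 turned positive, 0.11, when *adr-2 (-)* replicate 1 was left out.

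*pas-5* stood apart from every other member by its level. This alpha subunit gene (chromosome I, 10566350 to 10567300) had counts of 4378, 3756 and 4386 in dsRBD1 mutant cells, against 5019, 4837 and 3301 in *adr-2 (-)* cells, which overlapped. Per kilobase of annotated exon, its mean level was 4881 in dsRBD1 mutant cells, against 5129 in *adr-2 (-)* cells, while the median level of the other 32 members was 276 per kilobase in dsRBD1 mutant cells and 465 per kilobase in *adr-2 (-)* cells. *pas-5* was thus 17.7 times that median in dsRBD1 mutant cells and 11 times in *adr-2 (-)* cells, and it held 25.4% of the summed counts of the 33 genes in dsRBD1 mutant cells and 20.2% in *adr-2 (-)* cells. The log2 fold change of *pas-5* was −0.05 (standard error 0.22), and its direction turned with the library left out (−0.24 to 0.06). It also did not follow the other members across libraries: the correlation of its log2 values with the median of the other 32 was −0.26 over 6 libraries, compared with over 0.5 for 24 of the 33 genes. These correlations are a description, since all genes share the same libraries.

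*pas-6* had counts of 322, 282 and 299 in dsRBD1 mutant cells, against 624, 239.99 and 156 in *adr-2 (-)* cells. *adr-2 (-)* replicate 1 was the highest library and replicate 3 the lowest, so the groups overlapped. Its log2 fold change of 0.07 had no stable direction (−0.36 to 0.63 over the omissions of 1 library, and −0.17 with edgeR).

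Among the ATPases of the base, *rpt-1* and *rpt-2* had the lowest fold changes and did not overlap between the genotypes. *rpt-1* (chromosome V, 11980534 to 11982397) had counts of 231, 373 and 248 in dsRBD1 mutant cells, against 552, 396 and 709 in *adr-2 (-)* cells. *rpt-2* (chromosome V, 6016059 to 6017669), the subunit known in yeast to open the gate of the core, had counts of 263, 339 and 363 in dsRBD1 mutant cells, against 716, 377 and 872 in *adr-2 (-)* cells. In both genes the gap between the groups was narrow, since *adr-2 (-)* replicate 2 was just above the highest mutant library. Both had a log2 fold change of −0.95 (standard error 0.38 each), and the omissions of 1 library gave −1.17 to −0.75 for *rpt-1* and −1.31 to −0.70 for *rpt-2*. *rpt-5* had counts of 333, 366 and 386 in dsRBD1 mutant cells, against 553, 426 and 407 in *adr-2 (-)* cells. These too did not overlap, but the log2 fold change was only −0.34 (standard error 0.33). *rpt-3* and *rpt-4* had log2 fold changes of −0.57 each, which were −0.16 for *rpt-3* without *adr-2 (-)* replicate 3 and −0.29 for *rpt-4* without replicate 1, and *rpt-6* had one of −0.04 (0.13 without *adr-2 (-)* replicate 1), with overlapping groups in all 3 genes.

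The other base subunits were nearer to 0. The scaffold genes *rpn-1* and *rpn-2*, the longest of the 33 with 3171 and 3166 bases of exon, had log2 fold changes of −0.11 and −0.08, and both turned positive without *adr-2 (-)* replicate 3 (0.23 and 0.04), *rpn-2* also without dsRBD1 mutant replicate 2 (0.08). *rpn-10*, a ubiquitin receptor, had counts of 257, 104 and 176 in dsRBD1 mutant cells, against 405, 125 and 241 in *adr-2 (-)* cells. Its groups overlapped, with a log2 fold change of −0.46 (standard error 0.60) that was −0.06 without *adr-2 (-)* replicate 1. *rpn-13*, another ubiquitin receptor, had counts of 489, 309.97 and 316 in dsRBD1 mutant cells, against 625, 390.4 and 429 in *adr-2 (-)* cells. These overlapped through dsRBD1 mutant replicate 1, and the log2 fold change of −0.38 (standard error 0.36) was −0.17 without *adr-2 (-)* replicate 1.

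In the lid, *rpn-3* and *rpn-5* were the members with the highest fold changes. *rpn-3* (chromosome III, 8447353 to 8449346), a scaffold subunit of the lid, had counts of 801, 1556 and 1384 in dsRBD1 mutant cells, against 986, 902 and 745 in *adr-2 (-)* cells. Mutant replicates 2 and 3 were the highest libraries and mutant replicate 1 lay within the *adr-2 (-)* range, so the groups overlapped. The log2 fold change of *rpn-3* was 0.46 (standard error 0.29), with an adjusted p of 0.741 from limma, and it stayed positive, 0.27 to 0.75, in all omissions of 1 library. *rpn-5* (chromosome II, 4696418 to 4698427), also a lid scaffold subunit, had counts of 504, 382 and 309 in dsRBD1 mutant cells, against 329.8, 339 and 254 in *adr-2 (-)* cells. The groups overlapped, and the log2 fold change was 0.36 (standard error 0.37), between 0.17 and 0.52 in the same omissions. Across the 6 libraries, *rpn-5* and *rpn-3* had the most negative correlations with the median of the other members (−0.66 and −0.48), as a description.

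The deubiquitinase gene *rpn-11* had counts of 430.4, 355 and 469 in dsRBD1 mutant cells, against 447, 403 and 1077 in *adr-2 (-)* cells. Only *adr-2 (-)* replicate 3 lay outside the mutant range, and the log2 fold change of −0.48 (standard error 0.40) was −0.03 without it. Its partner in the lid, *rpn-8*, had a log2 fold change of −0.24, and 0.03 without the same library. *rpn-12* had counts of 142, 108 and 152 in dsRBD1 mutant cells, against 218, 183 and 218 in *adr-2 (-)* cells. These did not overlap, and *rpn-12* was the only lid gene of which this was true, with a log2 fold change of −0.63 (standard error 0.55). *rpn-7* had counts of 258, 284 and 223 in dsRBD1 mutant cells, against 734, 229 and 784 in *adr-2 (-)* cells. It overlapped through *adr-2 (-)* replicate 2, and the log2 fold change lay between −1.57 and −0.69 in the omissions of 1 library. *rpn-9* had a log2 fold change of 0.05, which was −0.05 without *adr-2 (-)* replicate 3.

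The paralogs *rpn-6.1* and *rpn-6.2* differed in level. RPN-6.1 is the lid subunit known in *C. elegans* for its link to long life in animals without a germline. *rpn-6.1* (chromosome III, 6959110 to 6962001) had counts of 991, 602 and 758 in dsRBD1 mutant cells, against 949, 648 and 1239 in *adr-2 (-)* cells. The groups overlapped, and the log2 fold change of −0.25 (standard error 0.31) was −0.03 without *adr-2 (-)* replicate 3. Its level per kilobase of exon was 476 in dsRBD1 mutant cells and 574 in *adr-2 (-)* cells. *rpn-6.2* (chromosome III, 8999817 to 9001999) had a level per kilobase of 18.9 in dsRBD1 mutant cells and 9.78 in *adr-2 (-)* cells, the lowest of the 33 genes. In dsRBD1 mutant libraries 0, 105 and 35 reads fell on *rpn-6.2*, against 28, 19 and 2 in *adr-2 (-)* libraries. A count of 0 in mutant replicate 1 stood beside the highest value in mutant replicate 2, so no direction could be read from this gene. Reads that fit both paralogs were dropped by the authors, who kept reads with 1 place in the genome.

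Per kilobase of exon, the highest levels after *pas-5* in dsRBD1 mutant cells were those of *rpn-3* (672), *pas-3* (506), *rpn-8* (506) and *rpn-6.1* (476). In *adr-2 (-)* cells they were those of *pas-3* (883), *pbs-7* (774), *pbs-4* (682) and *pas-4* (648), so the order differed between the genotypes. Above *rpn-6.2*, the lowest levels were those of *rpn-7* (134), *rpn-10* (139) and *rpn-12* (157) in dsRBD1 mutant cells. In *adr-2 (-)* cells they were those of *rpn-5* (179.7), *rpn-10* (199) and *rpn-12* (241). Of the 32 pairs of neighbours in the order of each genotype, only the 2 pairs that hold *pas-5* or *rpn-6.2* did not overlap between their replicates, in either genotype.

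Fold changes were lower in the shorter genes. The core genes had 801 to 1059 bases of annotated exon and the regulatory particle genes 855 to 3171 bases. Across the 33 genes, Spearman's rho between exon length and log2 fold change was 0.39 and Pearson's r with the log10 of length was 0.46. Spearman's rho was 0.22 within the core and 0.26 within the regulatory particle, 0.35 over all 33 genes without *adr-2 (-)* replicate 1 and 0.48 without replicate 3. Across the 13700 tested genes with a length it was 0.11. These are correlations across genes of the same libraries and are given as a description. The 13 members under 1000 bases had a median log2 fold change of −0.81, compared with −0.09 for the 4084 tested genes of that length, and the 20 longer members had one of −0.36. Whether length has a part in the fold changes was not tested.

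**Figure D4:**
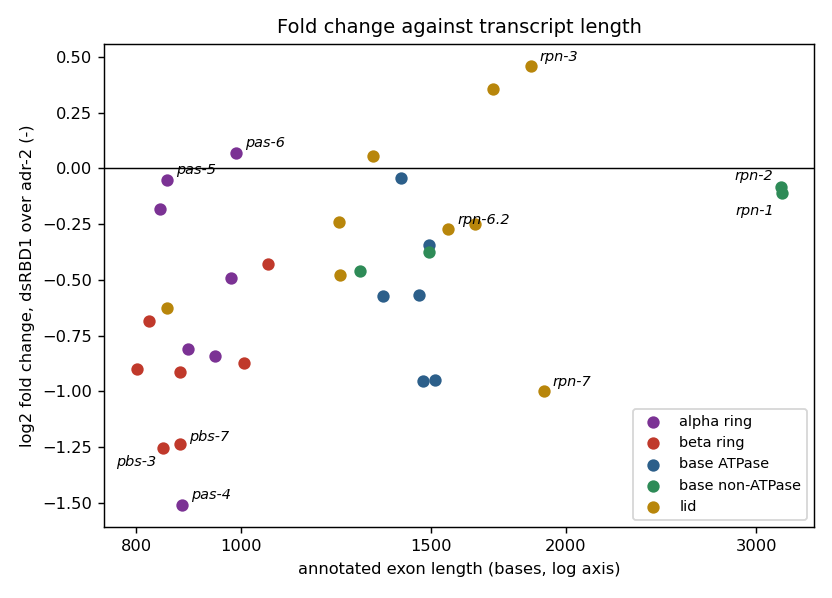
Log2 fold change (dsRBD1 mutant over *adr-2 (-)*) of the 33 subunit genes against annotated exon length (log axis), coloured by place in the complex. The core genes (alpha and beta ring) sit between 801 and 1059 bases and include the most negative fold changes (*pas-4*, *pbs-3* and *pbs-7*), while *rpn-1* and *rpn-2*, over 3000 bases long, sit near 0.

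The 33 genes lie on 5 chromosomes, with 10 on chromosome I, 7 on II, 8 on III, 3 on IV and 5 on V. Parts of 11 members overlap other annotated genes, with piRNA, miRNA, snoRNA and tRNA genes not considered. *pbs-7* shares 70 exon bases with *K07A12.5* on the same strand, and *rpn-7* shares 394 exon bases with *nemt-1* on the opposite strand. Also on opposite strands, *rpn-9* shares 140 with the noncoding RNA gene *T06D8.12* and *rpt-4* shares 103 with *rpoa-49*. *pbs-4* shares 73 exon bases with *mrrf-1*, *rpt-2* shares 29 with *fos-1* and *pbs-3* shares 24 with *ndx-3*, all on opposite strands. The library kit keeps strand, but the strand setting used to count these libraries is not given in the sources used here. The values of members with an overlap on the opposite strand carry that uncertainty. For *pbs-7* the overlap is on the same strand, which no strand setting resolves.

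Other genes of the ubiquitin pathway had log2 fold changes in both directions. Of 27 symbols listed for ubiquitin activation, transfer, shuttling and proteasome regulation, 25 were in the table and were tested, with 11 below 0 and 14 above 0 and a median log2 fold change of 0.18. Without *adr-2 (-)* replicate 3, 13 of the 25 were below 0 and the median was −0.03. None was called (limma with Benjamini-Hochberg adjustment, smallest adjusted p = 0.703), 0 were lower at an unadjusted p under 0.05 and 4 were higher (2.9% and 3.46% of all genes tested).

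These 4 were *hecd-1*, *uba-1*, *sel-1* and *sel-11*, of which *hecd-1* alone kept an unadjusted p under 0.05 without *adr-2 (-)* replicate 3. *hecd-1*, which encodes a HECT-type ubiquitin ligase, had counts of 7029, 7472 and 8607 in dsRBD1 mutant cells, against 4277, 6092 and 3858 in *adr-2 (-)* cells. These did not overlap, and the log2 fold change of 0.72 (standard error 0.23) ranged over 0.59 to 0.92 in the omissions. *uba-1*, the ubiquitin-activating enzyme gene, had counts of 2441, 3513 and 3824 in dsRBD1 mutant cells, against 2309.5, 2481 and 1112 in *adr-2 (-)* cells. Its groups overlapped, and the log2 fold change of 0.79 (standard error 0.31) was 0.42 without *adr-2 (-)* replicate 3. *sel-1*, of the route that removes misfolded proteins from the endoplasmic reticulum, had counts of 635, 624 and 631 in dsRBD1 mutant cells, against 362, 543 and 260.2 in *adr-2 (-)* cells, with no overlap. Its log2 fold change of 0.76 (standard error 0.34) was 0.51 without the same library. *sel-11*, a ubiquitin ligase of the same route, had counts of 429.5, 355 and 589 in dsRBD1 mutant cells, against 165, 326 and 3.25 in *adr-2 (-)* cells, also with no overlap. The value of 3.25 is 1 read, and without that library the log2 fold change of 2.87 was 0.95.

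The regulators of the subunit genes had no common direction. *skn-1*, whose isoform SKN-1A activates proteasome genes, had counts of 2584, 4579 and 4682 in dsRBD1 mutant cells, against 2903, 3014 and 2326 in *adr-2 (-)* cells. Its groups overlapped, and the log2 fold change was 0.48 (standard error 0.26). The counts cover all *skn-1* isoforms. *ddi-1*, the protease that cleaves SKN-1A, had counts of 184, 149 and 231.88 in dsRBD1 mutant cells, against 431, 231.92 and 491 in *adr-2 (-)* cells. These did not overlap, by the narrowest margin, and the log2 fold change was −0.98 (standard error 0.46; −0.77 without *adr-2 (-)* replicate 3). *png-1*, which edits SKN-1A by removing its sugars, had counts of 323, 281 and 282 in dsRBD1 mutant cells, against 431, 209.9 and 641 in *adr-2 (-)* cells, with overlap and a log2 fold change of −0.39 (standard error 0.44; −0.03 without *adr-2 (-)* replicate 3). *dss-1*, a small lid subunit outside the naming rule, had counts of 426, 292 and 202 in dsRBD1 mutant cells, against 398, 250.3 and 530.2 in *adr-2 (-)* cells, with overlap and a log2 fold change of −0.36 (standard error 0.44; −0.11 without *adr-2 (-)* replicate 3).

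Genes of other large complexes had medians closer to 0. Of 74 tested ribosomal protein genes, 64 were below 0 (86.5%), but their median log2 fold change was −0.14. In 17 of the 74 every mutant library lay below every *adr-2 (-)* library (6.92% of all genes tested). In 0 every mutant library lay above (6.8% of all genes tested). At an unadjusted p under 0.05 from limma, 8 were lower (2.9% of all genes tested) and 0 higher (3.46%). Genes without overlap were thus not particular to the proteasome. Without *adr-2 (-)* replicate 3, all 74 were below 0 and the median was −0.24. Their median normalized read count was 8695, 8330.1 and 8114 in dsRBD1 mutant replicates 1, 2 and 3, against 11179.9, 9470.5 and 8903 in *adr-2 (-)* replicates 1, 2 and 3. Of the 8 chaperonin genes (*cct-1* to *cct-8*), 3 were below 0, and their median log2 fold change was 0.07. The groups overlapped in all 8. Without the same library all 8 were below 0 and the median was −0.10. In *adr-2 (-)* replicate 3, the median deviation from the gene's own mean over the 6 libraries was 0.56 on the log2 scale for proteasome genes, −0.07 for ribosomal protein genes, −0.43 for chaperonin genes and −0.25 for all genes tested. In *adr-2 (-)* replicate 1 it was 0.45, 0.24, 0.13 and 0.20 for the same sets. These sets are compared by description only.

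As a share of reads on genes, the 33 members took 0.147%, 0.144% and 0.1295% in dsRBD1 mutant replicates 1, 2 and 3, against 0.224%, 0.155% and 0.132% in *adr-2 (-)* replicates 1, 2 and 3, so the groups overlapped. With reads on ribosomal RNA genes left out, the shares were 0.175%, 0.169% and 0.167% in dsRBD1 mutant cells, against 0.275%, 0.179% and 0.297% in *adr-2 (-)* cells. Each *adr-2 (-)* library then lay above each mutant library, with *adr-2 (-)* replicate 2 again the nearest to them.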

How the data were processed

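Poly(A) RNA of neural cells from L1 animals was sequenced in 6 libraries. The authors aligned 75 bp single-end stranded reads to WS275 with STAR (2.7.8a), keeping uniquely aligned reads, counted them with featureCounts and normalized them with DESeq2. The deposited signal is the read count divided by 1 size factor per library. Divided by the value of 1 read, all 83507 values above 0 (100%) came out whole (relative tolerance 2e-05), so reads were recovered. The deposited log2 fold changes and p-values are the authors' own comparison and were not used.

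Members and gene lists were chosen with earlier results of these data known. Groups follow the genotype in the labels. log2(value + 1) was tested with limma 3.58.1 (R 4.3.3) with a mean-variance trend for 13705 genes with a mean of at least 10, with Benjamini-Hochberg adjustment. Alternatives were edgeR 4.0.16 and DESeq2 1.42.0 on recovered reads, other scalings, filters and pseudocounts, a replicate block, and leaving out each library. Scripts were tested on simulated data. Exon lengths and coordinates come from the Ensembl annotation of WBcel235, the assembly of WS275, in which all 33 members were found by identifier. Of the ubiquitin list, *npl-4.1* and *ubc-2* (an older name of *let-70*) matched no symbol. Genes given by library are members past an unadjusted p of 0.05 or without overlap, the 3 highest and 3 lowest fold changes, catalytic, receptor and paralogous subunits, the extremes of level, and selected regulators. *pbs-6*, *pas-2* and *rpn-7* were added after their values were seen.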

Additional observations from a re-analysis of the deposited data

How the results depend on the processing

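Under 15 alternatives, the median log2 fold change of the proteasome genes lay between −0.71 and −0.34 and 25 to 31 of the genes were below 0. The count of all genes called was 0 with limma, 317 with DESeq2, 3 with no filter on low values, 21 with the replicate block, and 0 to 11 when each library was left out. No proteasome or ubiquitin-pathway gene was called under any of them. The 5 proteasome genes at an unadjusted p under 0.05 became 8 with the replicate block, 2 with scaling by library totals, 10 with scaling by totals without ribosomal RNA genes, and 1 to 11 when each library was left out. The share of all genes tested at that p was not computed under these settings, so the counts lack that comparison. The replicate numbers did not pair the libraries (correlations of same-numbered deviations −0.09, 0.04 and −0.06), and not every library correlated best with its own number. Scaling by totals shifted the median of all genes by 0.12 and scaling by totals without ribosomal RNA genes by −0.13. The proteasome median relative to all genes was −0.55 and −0.57 under these, against −0.57 as reported. The mean share of reads on the members was 0.140% in dsRBD1 mutant cells and 0.170% in *adr-2 (-)* cells, and 0.170% and 0.25% outside ribosomal RNA genes.

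The direction turned for 9 of the 41 genes followed (all members and 8 ubiquitin-pathway genes). *pas-6* was at −0.18 with DESeq2, −0.17 with edgeR, −0.0688 with totals without ribosomal RNA genes and −0.36 to 0.63 with each library left out. *rpn-6.2* was at 0.94 with DESeq2, 0.97 with edgeR and −1.49 to 1.51 in the omissions. With library totals, *pas-5* was at 0.0847, *rpt-6* at 0.0926, *rpn-1* at 0.0252 and *rpn-2* at 0.0516, and with totals without ribosomal RNA genes *rpn-9* was at −0.0859. In the omissions *pas-5* ranged over −0.24 to 0.0589, *pas-2* over −0.46 to 0.11, *rpt-6* over −0.28 to 0.13, *rpn-1* over −0.35 to 0.23, *rpn-2* over −0.21 to 0.0835, *rpn-8* over −0.50 to 0.0261 and *rpn-9* over −0.054 to 0.20. The causes were not tested. *rpn-6.2* has no value with at least 10 reads in every library. Members other than *rpn-6.2* had 48 to 1015 reads in *adr-2 (-)* replicate 3, the shallowest library.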
